A study of Mus musculus with 6 samples.

Results

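The colony-stimulating factors and their receptors were followed in mouse kidney messenger RNA. The set was named by symbol and holds 8 of the 22183 genes in the table: the ligand genes Csf1, Csf2 and Csf3, and the receptor genes Csf1r, Csf2ra, Csf2rb, Csf2rb2 and Csf3r. The libraries came from kidneys of mice given a plasmid for Wnt1 (3 libraries, called Wnt1 here) and of mice given the empty vector pcDNA3 (3 libraries, called control). Kidney tissue and batch 1 are shared by all 6 libraries, and the labels read here state no strain, age, sex, injury procedure or time. They do not say whether libraries came from separate mice, so the p-values cover library-to-library spread alone, part of which may be technical. The comparison asks how transcripts of kidneys that received Wnt1 differ from those given the vector alone.

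Colony-stimulating factors are secreted proteins that keep myeloid blood cells alive, make them divide and steer their maturation. CSF1 (M-CSF) acts on monocytes and macrophages through the tyrosine kinase CSF1R, which also binds interleukin-34, and injured kidney tubule cells are a known source of both ligands. CSF2 (GM-CSF) signals through a specific alpha chain and a common beta chain that interleukin-3 and interleukin-5 receptors also use, while CSF3 (G-CSF) drives neutrophil production through CSF3R.

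Expected counts summed to between 23585040 and 27218091 per library. The first principal component (78.0% of the variance) parted the groups, and the second (14.7%) set Wnt1 replicate 3 and control replicate 3 apart from the other 4 libraries. Wnt1 itself had 0, 1 and 0 reads in the Wnt1 libraries and 0 in each control library (exact permutation test, two-sided, p = 1), so the gene on the plasmid did not check the labels. Levels are given as CPM, counts scaled by library total and a TMM factor for composition, and fold changes are Wnt1 over control from edgeR's quasi-likelihood test with Benjamini-Hochberg adjustment over 14432 tested genes. Over all tested genes the median change (log2) was 0.05 on this scale and 0.47 when libraries were scaled by their totals alone.

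Every member that was deep enough to test was higher with the Wnt1 plasmid. Csf1 and all 5 receptor genes passed the filter on low counts, each with at least 16 reads in every library, and all 6 were called higher at an adjusted p under 0.05. Over all tested genes, 22.4% were called higher and 41.1% were called in either direction. The 3 Wnt1 libraries lay above the 3 control libraries for each of these 6 genes, as they did for 28.2% of tested genes (groups apart in either direction, 53.5%). All 6 were also called without Wnt1 replicate 3 and control replicate 3. Folds ran from 2.0 for Csf1r to 8.39 for Csf3r. Csf2 and Csf3, with 4 and 10 reads in their deepest libraries, did not pass the filter. In bulk kidney RNA, more cells of a type and more RNA per cell cannot be told apart.

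**Figure D1:**
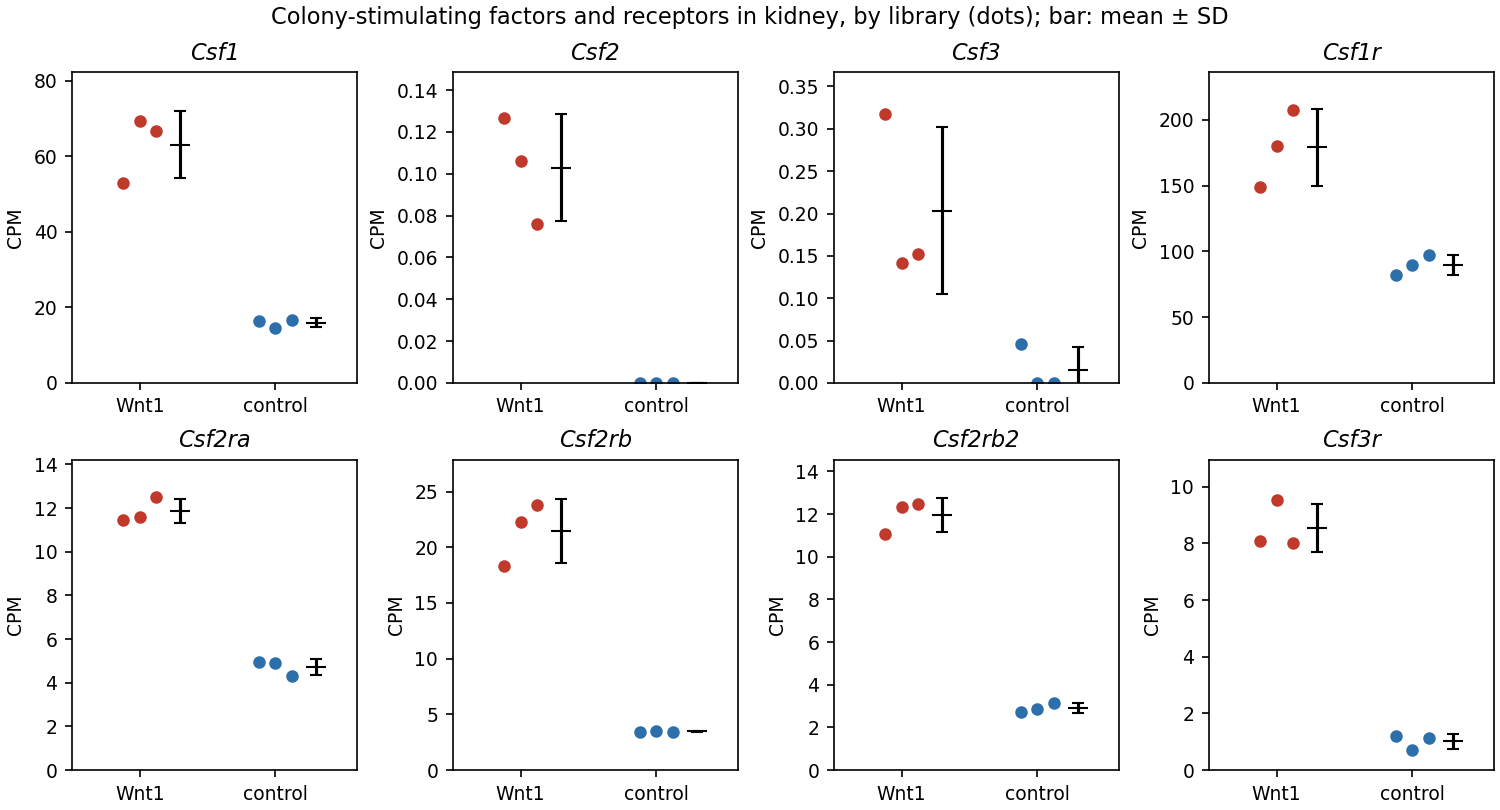
Level of each of the 8 genes in CPM (vertical axes start at 0 and differ between panels), with 1 dot per library, Wnt1 left of control, and the mean ± SD of 3 libraries beside the dots. In every panel the Wnt1 dots lie above the control dots; Csf2 and Csf3 stay under 0.32 CPM throughout.

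The 250 bases before the RefSeq start of 3 members are shown because these genes rose together and carry different motif letters there. Sequences are from RefSeq (GRCm38.p6), which had promoter entries for 5 of the 8 members (Csf1, Csf2, Csf2ra, Csf2rb2 and Csf3r). They are read along the gene's strand, and capitals mark matches, on either strand, to 5 motifs searched from 250 bases before to 50 after the start.
Csf1 promoter, chr3:107760470-107760719, minus strand: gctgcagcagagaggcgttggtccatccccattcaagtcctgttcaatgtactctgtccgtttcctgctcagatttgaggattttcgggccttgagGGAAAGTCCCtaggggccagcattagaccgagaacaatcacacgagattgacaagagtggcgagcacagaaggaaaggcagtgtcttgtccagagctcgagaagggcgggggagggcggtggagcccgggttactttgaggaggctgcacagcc
Csf3r promoter, chr4:126024409-126024658, plus strand: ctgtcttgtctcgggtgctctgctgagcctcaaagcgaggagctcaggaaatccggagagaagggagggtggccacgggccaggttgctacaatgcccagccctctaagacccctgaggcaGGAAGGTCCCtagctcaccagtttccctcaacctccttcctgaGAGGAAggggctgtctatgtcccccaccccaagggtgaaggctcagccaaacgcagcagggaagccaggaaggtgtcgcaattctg
Csf2ra promoter, chr19:61228419-61228668, minus strand: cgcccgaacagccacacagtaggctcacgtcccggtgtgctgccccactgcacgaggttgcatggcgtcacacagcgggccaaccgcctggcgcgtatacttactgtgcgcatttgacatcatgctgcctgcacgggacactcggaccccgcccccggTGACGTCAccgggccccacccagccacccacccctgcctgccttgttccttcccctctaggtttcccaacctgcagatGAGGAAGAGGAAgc
In Csf1 the capitals mark an NF-kappaB motif whose first base lies at -154. In Csf3r they mark an NF-kappaB motif at -129 and a PU.1 motif (GAGGAA) at -86. In GENCODE M21, used here for gene coordinates, Csf3r starts at 126024550. That start falls inside the printed stretch, and this PU.1 motif lies after it. In Csf2ra the capitals mark a cyclic AMP response element (TGACGTCA) at -92 and PU.1 motifs at -14 and -8, side by side without overlap. The GENCODE start of Csf2ra, 61228429, also falls inside its printed stretch, within the first of these PU.1 motifs. Csf2rb2 held PU.1 motifs at -167 and 30, and the Csf2 window held none of the 5. That window, 54249850 to 54250149, lies wholly before the GENCODE start of Csf2 at 54249667 (minus strand). The bases next to the GENCODE start were therefore not searched. Among all 32851 promoters in the table, the NF-kappaB motif was found in 8.46%, PU.1 in 28.3% and the cyclic AMP response element in 1.79%. The AP-1 motif (TGANTCA, in 7.81% of promoters) and the TCF/LEF motif of the Wnt pathway (CTTTGAT, in 3.73%) had no match in these 5 windows, which says nothing of binding elsewhere. A match is a description of letters and not a site.

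Csf1, the ligand that sustains macrophages, was 3.97-fold higher with the Wnt1 plasmid. It measured 53.0, 69.4 and 66.7 CPM in Wnt1 replicates 1, 2 and 3, against 16.5, 14.5 and 16.7 CPM in control replicates 1, 2 and 3. The lowest Wnt1 library was thus more than 3 times the highest control library. The means were 63.0 ± 8.81 CPM in Wnt1 and 15.9 ± 1.21 CPM in control (SD, n = 3 each). The log2 fold change of 1.99, with a standard error of 0.15, exceeded that of 93.0% of tested genes (edgeR adjusted p = 8.12e-05). The gene (ENSMUSG00000014599) lies on the minus strand of chromosome 3, from 107741048 to 107760469 in GRCm38.

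The second ligand of the same receptor, Il34, moved with it. Il34 averaged 64.0 ± 9.28 CPM in Wnt1 and 16.5 ± 3.33 CPM in control (log2 fold change 1.95 ± 0.19; edgeR adjusted p = 0.000189). Per length, the FPKM ratio of Csf1 to Il34 was 0.447, 0.540 and 0.439 in the Wnt1 libraries and 0.612, 0.413 and 0.438 in the control libraries. Those ranges overlap (exact permutation test, two-sided, p = 1), and Il34 was the more abundant of the pair in all 6 libraries. Markers of tubule injury were higher in the same libraries: 10 of 10 were called, with a median log2 fold change of 4.77 and summed levels of 14077 to 21905 CPM in Wnt1 and 1427 to 1747 CPM in control. Their part in the Csf1 and Il34 results was not tested.

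Genes of the machinery that sheds membrane-bound CSF1 and CSF1R, the proteases Adam17 and Adam10 and the rhomboid-like partners of ADAM17, were also measured. Of these 4 genes, 3 were called higher: Rhbdf2, which brings the protease ADAM17 to the surface (log2 fold change 1.32 ± 0.16; edgeR adjusted p = 0.00045), its relative Rhbdf1 (0.55 ± 0.14; adjusted p = 0.0172) and Adam17 (0.77 ± 0.20; adjusted p = 0.018). The Adam17 call was lost in 5 of 17 alternatives, each leaving out a single library (Wnt1 replicate 1 or 2 or any control), with adjusted p up to 0.0765. Adam10 stood at 0.79 ± 0.30 (adjusted p = 0.0709).

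Csf1r, the receptor of CSF1 and interleukin-34 and the most abundant member per length, was higher by a smaller factor than Csf1. It measured 149, 180 and 208 CPM in Wnt1 replicates 1 to 3, against 81.8, 89.5 and 97.4 CPM in control replicates 1 to 3. The groups did not overlap. The means were 179 ± 29.3 CPM in Wnt1 and 89.6 ± 7.79 CPM in control (SD, n = 3 each), and the log2 fold change was 1.00 ± 0.16 (edgeR adjusted p = 0.00162). Within each library the log2 ratio of Csf1 to Csf1r CPM, which needs no scaling between libraries, averaged -1.50 ± 0.13 in Wnt1 and -2.49 ± 0.17 in control, a difference of 0.99 with no overlap. The exact permutation test gave p = 0.1, the smallest p that 3 against 3 libraries allow, and the same difference on FPKM was 0.55.

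The size of the Csf1r rise depended on how its reads were divided and scaled. Csf1r (ENSMUSG00000024621, plus strand of chromosome 18, 61100598 to 61132149 in GRCm38) ends inside Hmgxb3 on the other strand, and their exons share 873 bases, from 61131277 to 61132149. The deposited counts of Csf1r were not whole numbers in any library, while Csf1r plus Hmgxb3 came out whole, within 0.011, in 6 of 6 libraries. Those sums were 5873, 6073 and 6712 in the Wnt1 libraries and 2974, 3338 and 3592 in the control libraries. Hmgxb3 alone was lower, at -0.60 ± 0.16 on the log2 scale (edgeR adjusted p = 0.0179), or -0.18 with library totals (adjusted p = 0.291). Its call was lost in 8 of 16 alternatives, among them leaving out Wnt1 replicate 1 or 2 or control replicate 2 or 3. The sum rose by 0.55 on the log2 scale (edgeR adjusted p = 0.0213), against 1.42 for Csf1r with library totals and 1.77 with limma on log2(FPKM + 1).

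The deposited FPKM of Csf1r moved further than its counts, also when both were scaled by library totals. FPKM values were 76.7, 94.3 and 93.6 in the Wnt1 libraries and 22.6, 26.8 and 25.8 in the control libraries, a ratio of means of 3.52. FPKM carries no composition factor, so its scale is that of library totals, where counts gave a log2 fold change of 1.42 and log2(FPKM + 1) gave 1.77; the TMM-scaled CPM ratio was 2.0. Dividing each count by its FPKM and library total gives the transcript length that the authors' values imply. For Csf1r this was 2250, 2283 and 2477 bases in the Wnt1 libraries and 3176, 2895 and 3196 bases in the control libraries, without overlap (exact permutation test, two-sided, p = 0.1, the smallest possible). Of 11520 genes with at least 50 counts in every library, 7.94% were likewise shorter in all Wnt1 libraries, and 0.122% had a lower Wnt1 to control ratio of this length. The GENCODE M21 annotation lists 6 Csf1r transcripts of 416 to 4701 bases, and which of them the reads came from was not tested.

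**Figure D2:**
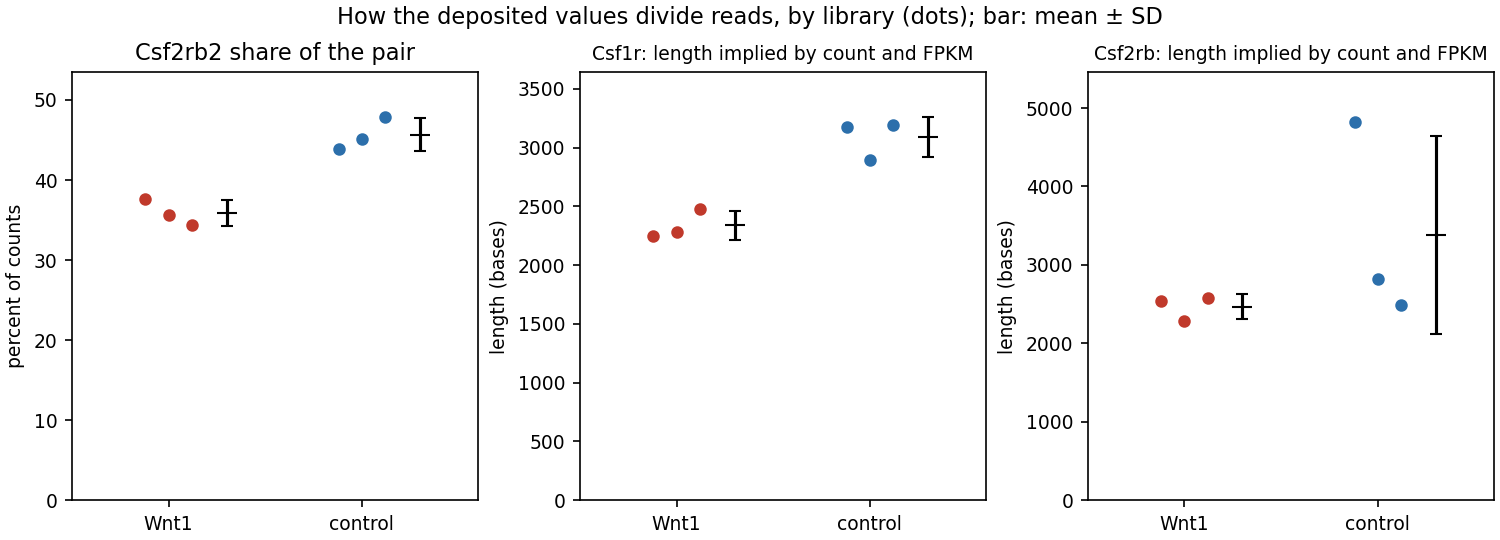
Left, share of Csf2rb plus Csf2rb2 counts assigned to Csf2rb2 (percent); middle and right, transcript length in bases implied by deposited count and FPKM for Csf1r and Csf2rb; dots are libraries, Wnt1 left of control, with mean ± SD, and axes start at 0. The Csf2rb2 share (34.3% to 37.7% in Wnt1, 43.9% to 47.9% in control) and the Csf1r length differ without overlap, while 1 control library at 4825 bases widens the Csf2rb panel.

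Csf2, the GM-CSF gene, was close to the detection limit. Its counts were 4, 3 and 2 in the Wnt1 libraries and 0 in each control library (exact permutation test, two-sided, p = 0.1). A count of 0 allows up to 3 counts, or 0.133 to 0.138 CPM in the control libraries, so no fold is given. With no filter, edgeR gave an adjusted p of 0.0595 and limma on log2(FPKM + 1) an adjusted p of 0.0118, while DESeq2 set no adjusted p. The gene (ENSMUSG00000018916) lies on chromosome 11 from 54247271 to 54249667 (GRCm38, minus strand).

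The receptor chains for GM-CSF were readily measured, and all 3 rose. Csf2ra, the alpha chain that binds GM-CSF, measured 11.5, 11.6 and 12.5 CPM in the Wnt1 libraries, against 4.97, 4.92 and 4.29 CPM in the control libraries. Its log2 fold change was 1.33 ± 0.16 (edgeR adjusted p = 0.000468), with means of 11.9 ± 0.567 CPM in Wnt1 and 4.72 ± 0.377 CPM in control (SD, n = 3 each). It was the tightest member within the Wnt1 group and lies near the end of chromosome 19 (ENSMUSG00000059326, 61223957 to 61228429, minus strand, GRCm38).

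Csf2rb, the signalling beta chain shared by the receptors for GM-CSF, interleukin-3 and interleukin-5, rose 6.14-fold. It measured 18.3, 22.2 and 23.8 CPM in the Wnt1 libraries, against 3.45, 3.54 and 3.47 CPM in the control libraries. Means were 21.4 ± 2.85 CPM in Wnt1 and 3.49 ± 0.0507 CPM in control (SD, n = 3 each), and its log2 fold change was 2.62 ± 0.17 (edgeR adjusted p = 4.27e-05). Csf2rb2, the second beta chain of the mouse, which serves the interleukin-3 receptor only, measured 11.1, 12.3 and 12.5 CPM in the Wnt1 libraries, against 2.71, 2.88 and 3.15 CPM in the control libraries. Its log2 fold change was 2.03 ± 0.17 (edgeR adjusted p = 0.000107), with no overlap between groups. The partners of these chains were sparser: Il3ra rose (1.51 ± 0.24; edgeR adjusted p = 0.00162), Il5ra stood at 1.20 ± 0.42 (adjusted p = 0.0512; called higher in 7 of 17 alternatives), Il3 had no read in any library, and Il5 had 1 read in all, in a Wnt1 library.

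Csf2rb and Csf2rb2 are near-identical copies, and stretches of both are shown because the division of their reads rests on the bases that differ. Both genes lie on chromosome 15, Csf2rb2 on the minus strand (ENSMUSG00000071714, 78282507 to 78305721) and Csf2rb on the plus strand (ENSMUSG00000071713, 78325752 to 78353847), with their starts facing each other across 20030 bases (GRCm38). Their coding sequences have 2691 bases in Csf2rb and 2637 bases in Csf2rb2. They were identical at 2506 of 2629 aligned positions (95.3%), with a longest identical run of 242 bases. A 120-base stretch at coding positions 2083 to 2202 is the same in both genes and is printed once. The stretch with the most differences, 22 in 120 bases, is printed for each gene with differing bases in capitals. It crosses an intron, so its coordinates span more than its length.
Csf2rb and Csf2rb2 shared stretch, placed in Csf2rb, chr15:78348577-78348696, plus strand: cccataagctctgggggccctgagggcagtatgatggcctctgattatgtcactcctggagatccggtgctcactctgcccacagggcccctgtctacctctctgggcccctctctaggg
Csf2rb most different stretch, chr15:78338898-78340471, plus strand: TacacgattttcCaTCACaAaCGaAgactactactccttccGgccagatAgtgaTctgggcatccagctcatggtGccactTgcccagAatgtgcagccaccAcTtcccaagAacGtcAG
Csf2rb2 most different stretch, chr15:78292838-78294433, minus strand: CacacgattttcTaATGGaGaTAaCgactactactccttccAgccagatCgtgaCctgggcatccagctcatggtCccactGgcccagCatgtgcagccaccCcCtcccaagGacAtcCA
Of all 50-base windows, 26.0% of those in Csf2rb were found whole in Csf2rb2, and 26.5% of those in Csf2rb2 in Csf2rb.

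The beta chains were also counted as a sum, which does not depend on how reads were divided. Counts of both genes were not whole in any library, and their sum was whole in 6 of 6, at 926, 976 and 957 in the Wnt1 libraries and 134, 145 and 145 in the control libraries. The sum rose by 2.38 on the log2 scale (edgeR adjusted p = 3.89e-05). Csf2rb2 took 37.7%, 35.6% and 34.3% of these counts in the Wnt1 libraries and 43.9%, 45.1% and 47.9% in the control libraries. The share differed by -9.77 percentage points, lower in Wnt1 (exact permutation test, two-sided, p = 0.1, the smallest possible), and by -16.4 points on FPKM. The FPKM shares were 25.0%, 21.4% and 22.4% in the Wnt1 libraries and 50.2%, 33.3% and 34.5% in the control libraries. The length implied for Csf2rb was 2539, 2282 and 2582 bases in the Wnt1 libraries and 4825, 2822 and 2493 bases in the control libraries, which overlap. Per length, the FPKM of both beta chains over that of Csf2ra was 1.55, 1.97 and 1.76 in the Wnt1 libraries and 0.535, 0.705 and 0.909 in the control libraries, again without overlap (p = 0.1 by the same exact test). On FPKM the beta chains thus exceeded the alpha chain in every Wnt1 library and in no control library. Unlike the summed counts, a summed FPKM depends on how reads were divided and on the implied lengths, such as the 4825 bases of Csf2rb in control replicate 1.

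Csf3, the G-CSF gene, had few reads, and its receptor gene had the largest edgeR fold among the 6 tested members. Csf3 counts were 10, 4 and 4 in the Wnt1 libraries and 1, 0 and 0 in the control libraries. Pooled over libraries and scaled for their sizes, the ratio was 13.8, with an exact 95% interval for counting error of 2.18 to 577 (exact permutation test over libraries, two-sided, p = 0.1). With no filter the adjusted p was 0.0386 by edgeR and 0.0647 by limma on log2(FPKM + 1), and it was 0.0923 by DESeq2. The gene (ENSMUSG00000038067) lies on chromosome 11 from 98701263 to 98703629 (GRCm38, plus strand).

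Csf3r, the receptor of G-CSF on neutrophils and some monocytes, measured 8.08, 9.52 and 8.0 CPM in the Wnt1 libraries, against 1.20, 0.709 and 1.14 CPM in the control libraries. Every Wnt1 library exceeded every control library by more than 6-fold. Its means were 8.54 ± 0.855 CPM in Wnt1 and 1.02 ± 0.267 CPM in control (SD, n = 3 each), and its log2 fold change was 3.07 ± 0.25 (edgeR adjusted p = 0.000104). On log2(FPKM + 1), a scale that understates changes of low genes, limma gave 1.66. On FPKM Csf2rb stood above it, at 2.50 against 1.66 with a pseudocount of 1 and at 3.29 against 3.09 with 0.1. Control counts were only 26, 16 and 25 reads (ENSMUSG00000028859, chromosome 4, 126024550 to 126044440, plus strand, GRCm38).

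**Figure D3:**
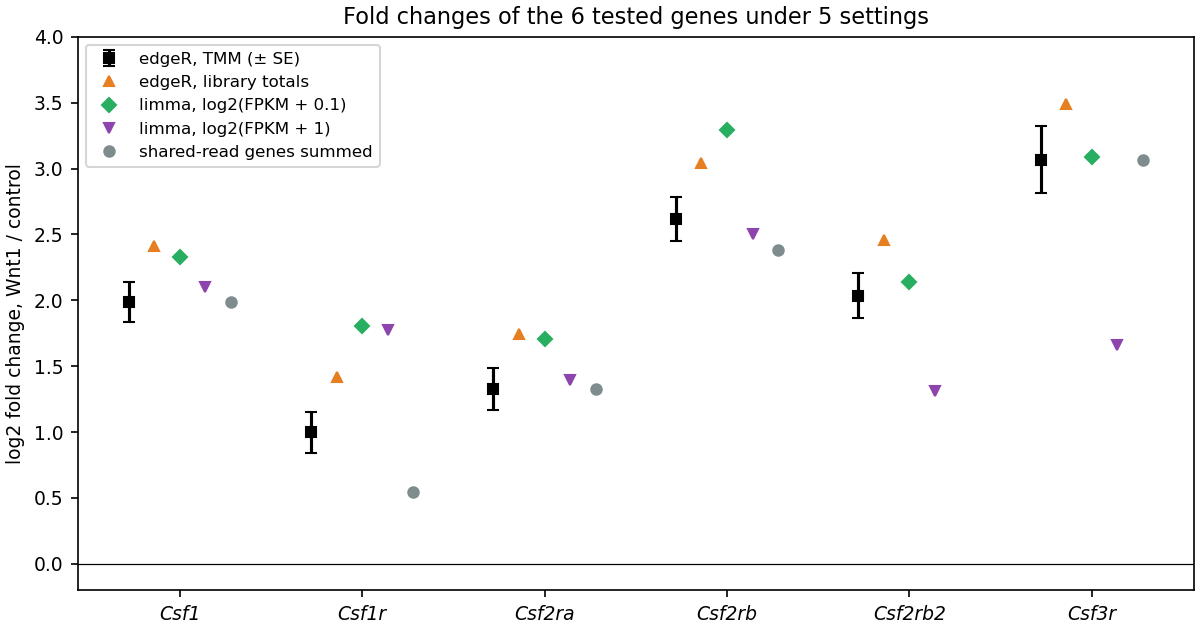
Log2 fold change, Wnt1 over control, of the 6 tested genes under edgeR with TMM factors (squares, ± SE), edgeR with library totals, limma on FPKM with either pseudocount, and edgeR with read-sharing genes summed (Csf1r with Hmgxb3, and Csf2rb with Csf2rb2, drawn at Csf2rb). All points lie above 0, from 0.55 for Csf1r summed with Hmgxb3 to 3.49 for Csf3r with library totals.

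The members did not rise by the same factor. Of 15 pairs among the 6 tested genes, 12 had log2 CPM differences (each CPM plus 0.5) that did not overlap between groups. The exact permutation p was 0.1 for each of these, 0.125 after adjustment over the 15 pairs, and 3 against 3 libraries cannot go lower. Csf1r rose by less than Csf2rb (a difference of -1.47) and by less than Csf3r (-1.60). Csf2ra rose by less than Csf2rb (-1.21), the chain it pairs with. For 3 pairs the groups overlapped: Csf1 with Csf2rb2 (0.08; exact p = 0.5), Csf2rb with Csf3r (-0.14; exact p = 0.5) and Csf1r with Csf2ra (-0.26; exact p = 0.2). Overlap does not show that such genes acted alike.

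Set side by side per length, the order of the genes differed between groups in the middle ranks. In the Wnt1 libraries the FPKM ranges ran, from high to low, Csf1r, Csf1, Csf2rb, Csf2ra, Csf3r, Csf2rb2, Csf3 and Csf2. Neighbours in that order overlapped only for Csf3r with Csf2rb2 and for Csf3 with Csf2. In the control libraries the order was Csf1r, Csf1, Csf2ra, Csf2rb, Csf2rb2, Csf3r, Csf3 and Csf2, with overlap for Csf2rb with Csf2rb2 and for Csf3 with Csf2. Csf2rb had 8.35, 11.6 and 10.3 FPKM in the Wnt1 libraries and 0.629, 1.08 and 1.17 FPKM in the control libraries. Csf2ra had 7.19, 7.50 and 7.57 FPKM in the Wnt1 libraries and 2.36, 2.30 and 1.97 FPKM in the control libraries.

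Csf1r rose less than most other macrophage genes. Of 18 macrophage markers, 17 were tested, 15 were called higher and 1 lower, with a median log2 fold change of 3.08. Their summed level was 1849 to 2221 CPM in Wnt1 and 213 to 247 CPM in control, and Marco, with no read in the controls, was not tested. Among those with the smallest p, Lyz2 (lysozyme) rose by 4.30 ± 0.17, Itgam (the integrin CD11b) by 4.69 ± 0.24, Ms4a7 by 4.05 ± 0.17 and Cd14 by 3.08 ± 0.16 on the log2 scale (edgeR adjusted p between 1.45e-05 and 2.68e-05). Csf1r, at 1.00, lay under 16 of the 17. The exception was Mertk, which falls outside the rule for named genes and was singled out after its values were seen (-0.62; edgeR adjusted p = 0.00948; -0.20 with library totals, adjusted p = 0.266). Of the 16, Ly6c2 lay nearest to Csf1r and was not called (1.05, edgeR adjusted p = 0.0687). The deposited Csf1r counts were divided with Hmgxb3, and limma on log2(FPKM + 1) gave Csf1r 1.77.

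Within each library the same difference appeared as a ratio. Csf1r over the summed tested macrophage markers had log2 values of -3.63, -3.62 and -3.34 in the Wnt1 libraries and -1.55, -1.25 and -1.34 in the control libraries. The difference was -2.15, with Wnt1 lower and no overlap (exact permutation test, two-sided, p = 0.1, the smallest possible). Over 10 alternatives, among them FPKM, no Lyz2 and a geometric mean of the markers, the difference stayed between -2.25 and -1.65. The beta chains, Csf2rb plus Csf2rb2, kept closer to the markers: their log2 ratio averaged -5.95 ± 0.08 in Wnt1 and -5.18 ± 0.12 in control, a difference of -0.76 (p = 0.1 by the same exact test) that shrank to -0.26 in the alternative nearest to 0. How far marker levels set the receptor levels was not tested.

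**Figure D4:**
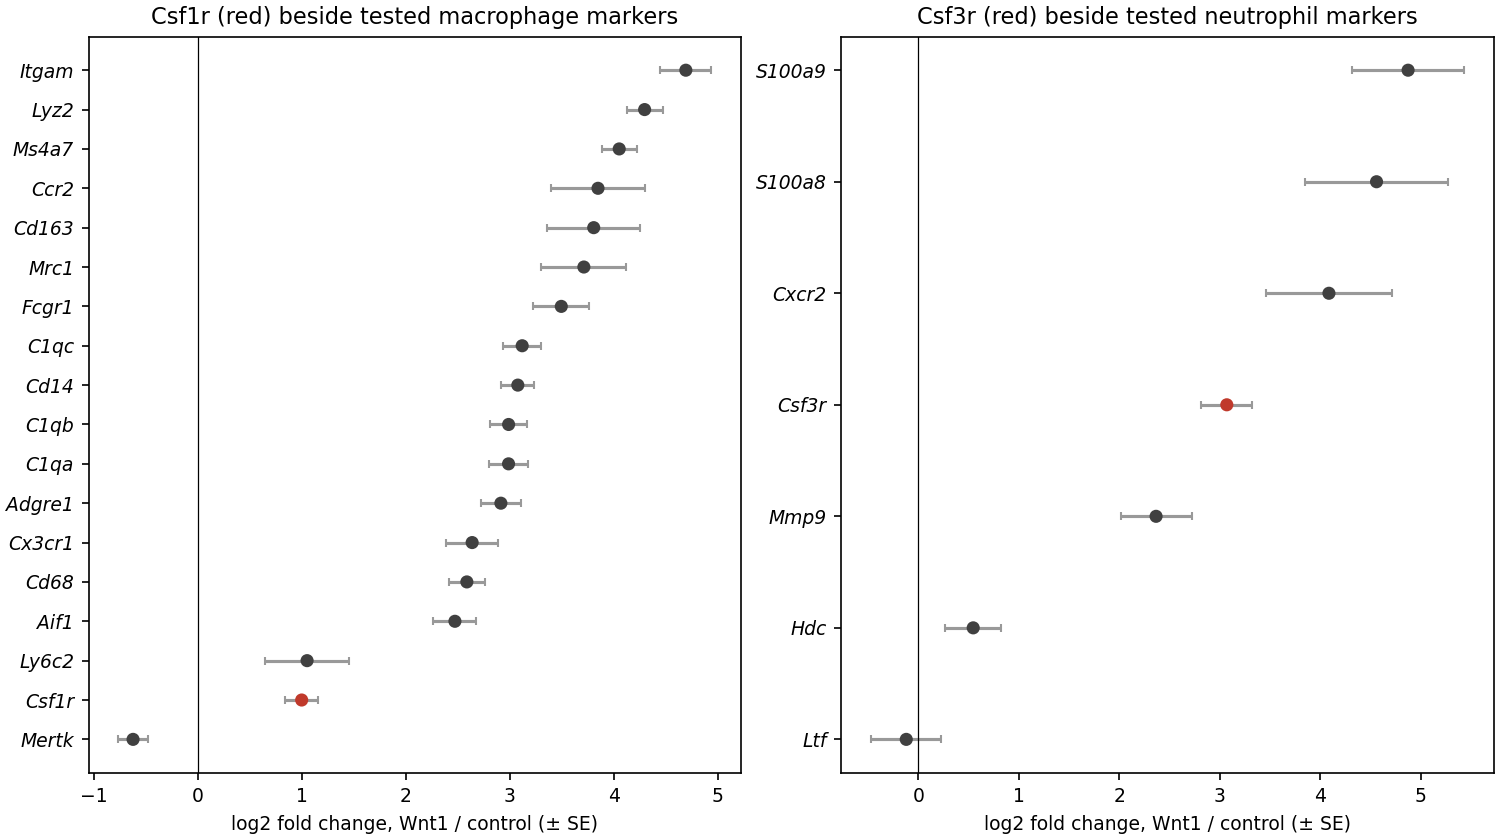
Log2 fold change, Wnt1 over control (± SE), of Csf1r (red) beside the 17 tested macrophage markers and of Csf3r (red) beside the 6 tested neutrophil markers, sorted by value. Csf1r at 1.00 lies above Mertk alone, whereas Csf3r at 3.07 lies in the middle of its list.

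Csf3r lay in the middle of the 6 tested neutrophil markers. Of 14 listed, 6 were tested and 4 called higher, with a median log2 fold change of 3.22: the calprotectin genes S100a9 (4.87 ± 0.56; edgeR adjusted p = 0.000359) and S100a8 (4.56 ± 0.71; adjusted p = 0.00147), the chemokine receptor Cxcr2 (4.08 ± 0.63; adjusted p = 0.00138) and the protease Mmp9 (2.36 ± 0.35; adjusted p = 0.0013). The list summed to 13.7 to 22.2 CPM in Wnt1 and 3.45 to 4.34 CPM in control. S100a9, S100a8 and Cxcr2 passed the filter on their Wnt1 reads alone. In control replicates 1 to 3, S100a9 had 0, 0.177 and 0.183 CPM and S100a8 had 0.046, 0.222 and 0 CPM. Cxcr2 had 0.138, 0.0443 and 0.0456 CPM there. Their folds and the list median rest on these few control reads, and the median ran from 0.26 to 4.63 over the alternatives. Over the alternatives S100a8 ran from 2.42 to 6.41 (6.41 without control replicate 2) and Cxcr2 from 0.56 to 4.85 (4.85 without control replicate 1). The 2 tested markers that were not called were the granule gene Ltf (0.655 ± 0.124 CPM in Wnt1 and 0.712 ± 0.195 CPM in control; -0.12 ± 0.35; edgeR adjusted p = 0.808) and Hdc. Of the untested ones, Camp had no read in any library, Mpo and Elane averaged 0 CPM in Wnt1 and 0.0153 CPM in control, and Ngp and Stfa2l1 had no read in the controls. Mmp8 averaged 0.668 CPM in Wnt1 and 0.0148 CPM in control, Retnlg 0.433 CPM in Wnt1 and 0.0148 CPM in control, and Ly6g 0.0106 CPM in Wnt1 and 0.0153 CPM in control. Csf3r over the summed tested markers had log2 values of -1.01, -1.12 and -0.69 in the Wnt1 libraries and -1.47, -2.27 and -1.93 in the control libraries. The difference was 0.95 (exact permutation test, two-sided, p = 0.1, the smallest possible), but 0.17 on FPKM and 1.62 with a geometric mean of the markers.

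Markers of other cell types, some of which carry these receptors, were counted in the same way. Dendritic cell markers were called higher for 9 of 10 (median log2 fold change 1.64), with sums of 63.6 to 83.0 CPM in Wnt1 and 23.0 to 26.2 CPM in control, led by Cd83, Itgax, Cd209a and Siglech. Siglech, at 0.138, 0.0443 and 0.137 CPM in control replicates 1 to 3, passed the filter on its Wnt1 reads alone. Of 10 eosinophil and mast cell markers, 2 were tested and 1 was called, the sialic acid receptor Siglecf, while Il5ra was not; over the alternatives 0 to 3 were called. Their sum was 3.45 to 6.90 CPM in Wnt1 and 1.28 to 2.90 CPM in control, and Prg2, Epx, Ccr3, Tpsb2 and Fcer1a had no read in the controls. Siglecf passed the filter on its Wnt1 reads alone, with 0.046, 0 and 0 CPM in control replicates 1 to 3. T and NK cell markers were called higher for 12 of 12 and B cell markers for 4 of 5 tested. Among the former, Ncr1, at 0.138, 0.0886 and 0 CPM in control replicates 1 to 3, passed the filter on its Wnt1 reads alone. Fibroblast and mural cell markers were called higher for 8 of 10, with sums of 2101 to 3386 CPM in Wnt1 and 568 to 719 CPM in control. Kidney tubule and podocyte markers were called lower for 9 of 10 (6 with library totals) and endothelial markers for 5 of 8 (1 with library totals). The part of these cell types in the receptor results was not tested.

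Genes that act downstream of the receptors were higher more often than lower. Of 26 signalling genes, 14 were called higher and 1 lower (median log2 fold change 0.59; with library totals 21 higher, none lower, median 1.01). Over all 14432 tested genes, 3239 were called higher and 2697 lower (median 0.05). With library totals these were 6348 and 1288 (median 0.47), so the whole table moved up between the scalings as well. Tyrobp, the adaptor DAP12 of myeloid receptors, rose by 2.81 ± 0.15 (edgeR adjusted p = 2.68e-05), the kinase Syk by 2.60 ± 0.19 (adjusted p = 7.23e-05), the exchange factor Vav1 by 2.58 ± 0.21 (adjusted p = 0.000107) and the leukocyte lipid kinase Pik3cd by 2.15 ± 0.18 (adjusted p = 0.000109). The Janus kinases Jak1, Jak2 and Tyk2 were among the 11 not called. Stat5b, a transcription factor activated by GM-CSF, was the gene called lower (-0.57; adjusted p = 0.0128) and was picked out after its value was seen. That call was lost in 5 of 17 alternatives, among them library totals (-0.15; adjusted p = 0.305) and leaving out Wnt1 replicate 1.

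Feedback inhibitors of these receptors moved in both directions. Of 13, 10 were called higher and 1 lower, with a median log2 fold change of 1.43. Socs3, which binds and silences the G-CSF receptor, averaged 55.5 ± 9.69 CPM in Wnt1 and 3.81 ± 0.297 CPM in control (log2 fold change 3.86 ± 0.19; edgeR adjusted p = 2.22e-05). The adaptor Sla (2.40 ± 0.23; adjusted p = 0.000192), the docking protein Dok3 (1.99 ± 0.20; adjusted p = 0.000215) and the lipid phosphatase Inpp5d, known as SHIP1 (1.48 ± 0.17; adjusted p = 0.000398), also rose. Cish, a classical STAT5 target, was the gene called lower and was likewise picked after its value was seen. It averaged 33.7 ± 6.26 CPM in Wnt1 and 76.5 ± 28.7 CPM in control (-1.18 ± 0.27; adjusted p = 0.0102), and 3 of 17 alternatives, all on FPKM, lost the call.

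Genes that act upstream of the members were measured in the same way. Of 13 tested myeloid transcription factors, 10 were called higher and none lower (median log2 fold change 1.16). Among those called, Gfi1, at 0.046, 0.133 and 0.137 CPM in control replicates 1 to 3, passed the filter on its Wnt1 reads alone. Spi1, which encodes PU.1 and is needed for Csf1r expression in macrophages, rose by 2.35 ± 0.19 (edgeR adjusted p = 0.000102), Egr2 by 3.31 ± 0.34 (adjusted p = 0.00022), Irf4 by 2.80 ± 0.29 (adjusted p = 0.000261) and Cebpd by 1.74 ± 0.25 (adjusted p = 0.00102). Of 8 cytokines known to induce colony-stimulating factors, 3 were deep enough to test and all were called higher. Tnf lay under the level of 3 counts (0.133 to 0.138 CPM) in every control library, so it passed the filter on its Wnt1 reads alone. Of the untested ones, Il1a and Il6 averaged higher in Wnt1, and Ifng averaged higher in control (0.0586 CPM in Wnt1 and 0.135 CPM in control). Il17a was seen in Wnt1 replicate 2 alone (0.0708 CPM). Il17c was seen only in Wnt1 replicate 1 (0.0317 CPM) and control replicate 1 (0.046 CPM). Both are too sparse to give a direction. Tnf averaged 1.77 ± 0.314 CPM in Wnt1 and 0.0906 ± 0.00177 CPM in control, Il1b 7.15 ± 1.64 CPM in Wnt1 and 1.22 ± 0.464 CPM in control, and Il33 34.6 ± 11.0 CPM in Wnt1 and 8.65 ± 3.04 CPM in control. Their log2 fold changes were 4.22 ± 0.39, 2.54 ± 0.32 and 2.0 ± 0.33 (edgeR adjusted p between 0.000141 and 0.00221). Over the alternatives the lowest values were 1.1 for Tnf, 1.02 for Irf4 and 1.86 for Egr2. Among 8 tested growth factor and receptor genes of other blood lineages, 3 were called higher (Flt3, Il7r and Flt3l) and Kit, Kitl, Epor, Thpo and Il7 were not called. Il7r, at 0, 0.177 and 0.228 CPM in control replicates 1 to 3, passed the filter on its Wnt1 reads alone. The Flt3l call was lost in 5 of 17 alternatives, each without a single library.

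All 8 members carry the cytokine receptor interaction term of KEGG in the authors' table. Of its 181 tested genes, 120 were called higher and 7 lower (median log2 fold change 1.35). The blood cell lineage term, with 6 members, had 55 higher and 5 lower of 76 tested (median 1.47), and the JAK-STAT term, also with 6 members, had 48 higher and 14 lower of 109 (median 0.47). These counts include the members themselves. Over all tested genes, 22.4% were called higher and 18.7% lower (median 0.05).

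For each tested member, the 3 nearest other tested genes across the 6 libraries were listed. Likeness was the root-mean-square difference of log2(CPM + 0.5) after each gene's mean was removed, over 14031 candidates. With so many candidates and libraries split by group, a gene of similar fold is likely to be near any member. No background distance was computed, so the distances do not show shared regulation. Nearest to Csf1 was P2rx7, an ATP-gated channel, at 0.0275, followed by Lhfp and Plp2. Csf1r was nearest to Myh9, a non-muscle myosin (0.0423), then Tgfbr2 and Stn1. Csf2ra had Sh3bp1, Kcns3 and Col10a1, Csf2rb had Cdh3, Myo1f and Il21r, and Csf2rb2 had Lpxn, Meis3 and Plekhs1. Csf3r was nearest to Clec4a1 (0.0589), a lectin receptor, then Nav3 and Arg2. The added 0.5 compresses low genes, so Col10a1 and Plekhs1 match on this scale with fitted log2 fold changes of 7.13 and 3.95, far from those of Csf2ra and Csf2rb2.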

How the data were processed

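RNA of 6 mouse kidney libraries was enriched for messenger RNA on oligo(dT) beads and read on a NovaSeq sequencer, per the labels' protocols. Per the submitters' processing notes, the tools were RSEM, HISAT2, StringTie 1.3.1, Bowtie2 2.2.8 and fastp 0.18.0, on mm10. The sources used here name neither the annotation release nor the strand setting. For each gene and library the authors deposited an expected count (an estimate of reads, not always whole); 9.02% of these were not whole and were rounded. The table lists 22183 genes. The authors also deposited FPKM, which divides a count by library total and transcript length. The table held 0 value columns of other samples. Replicate numbers follow the order of the records and pair nothing.

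Tests on counts used edgeR 4.0.16 under R 4.3.3 (filterByExpr, TMM factors, robust quasi-likelihood test, two-sided), adjusted by Benjamini-Hochberg over 14432 tested genes, with a call at an adjusted p under 0.05. Standard errors after ± on fold changes come from the same fit; those on levels are SD of 3 libraries. Ratios and shares were compared by exact permutation over libraries, for which 3 against 3 cannot go below p = 0.1. The fit was tested on simulated data. Molecular identifiers are not mentioned, so the interval and the limit of 3 counts cover counting error only. Coordinates are from GENCODE M21 (GRCm38, which mm10 names), to which 22128 identifiers matched.

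The alternatives comprised DESeq2 1.42.0, edgeR with upper-quartile factors, median-ratio factors or library totals, no filter, a stricter filter (CPM 1 or more throughout a group), limma 3.58.1 on log2(FPKM + 1) or log2(FPKM + 0.1), leaving out each library, and leaving out both libraries numbered 3. Chosen after seeing the data were sums of genes that share reads, a geometric mean of markers and markers without Lyz2. Named were all members, the 5 ligand partners, up to 4 called genes with the smallest p from each of the other lists, and the 3 genes most like each tested member. The members and the 17 lists were chosen with earlier results of these data known, so they are no independent support for a direction. No protein sequence was used.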

Additional observations from a re-analysis of the deposited data

How the results depend on the processing

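All 6 tested members were called higher in each of the 17 alternatives in which they had a value (101 of 101 values), and no result turned its direction. In the alternative with read-sharing genes summed, the Csf1r value is its sum with Hmgxb3 and the Csf2rb value its sum with Csf2rb2. The number of members called was 7 with no filter, where Csf3 or Csf2 was added, and 5 when read-sharing genes were summed, because Csf2rb and Csf2rb2 then count once. Leaving out single libraries gave log2 fold changes of 1.91 to 2.11 for Csf1, 0.88 to 1.15 for Csf1r, 1.29 to 1.42 for Csf2ra, 2.53 to 2.72 for Csf2rb, 2.0 to 2.18 for Csf2rb2 and 2.93 to 3.26 for Csf3r. Across the other alternatives Csf1r ran from 0.55, its sum with Hmgxb3, to 1.81, and Csf3r from 1.66 to 3.49. The 6 members differed from the median of all genes by nearly the same amount with TMM factors and with library totals (for Csf1r by 0.95 and 0.95). A change of scaling moves all genes by nearly the same log2 amount, so this is no check on the members. Genes called over the whole table moved more, from 3239 higher and 2697 lower: library totals gave 6348 higher and 1288 lower, limma on log2(FPKM + 1) 5144 and 1238, on log2(FPKM + 0.1) 5139 and 1234, and on log2(FPKM + 1) without a filter 4890 and 1031. Without both libraries numbered 3 the calls were 4664 higher and 4432 lower, and without single libraries 2681 to 4165 higher and 1797 to 3977 lower; the lowest count of lower calls came without control replicate 2. The causes were not tested. Of 83 other genes followed, 14 crossed the threshold in some alternative, 60 times to the uncalled side and 7 times to the called side. No paired analysis was possible because the groups share fewer than 2 replicate numbers in the labels' titles. Depth limits Csf2 and Csf3, whose reads stand near the 3 counts that a 0 allows.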
